A study of Homo sapiens with 19 samples.

Results

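Subunits of the AP-1 transcription factor, ATF3, EGR1 and MYC were followed through STAT3 or HMGN5 depletion and ectopic HMGN5 in MDA-MB-231 cells, an established line from a human triple-negative breast tumour. They were picked by Ensembl transcript ID, which gave 10 transcripts of 9 genes among the 175775 listed: JUN (ENST00000371222), JUNB (ENST00000302754), JUND (ENST00000252818), FOS (ENST00000303562), FOSL1 (ENST00000312562), FOSL2 (ENST00000264716), ATF3 (ENST00000341491), EGR1 (ENST00000239938) and 2 of MYC (ENST00000377970 and ENST00000621592). All 10 were found. After a filter on low counts, 10 were tested in the siRNA experiment and 9 in the lentiviral experiment, where MYC ENST00000621592 was listed at 0 in all 9 libraries.

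Poly(A) RNA of 17 libraries was sequenced, and all cells were transfected with siRNA at 30 nM. In the siRNA experiment, cells without a vector received control siRNA (NC, 4 libraries), HMGN5 siRNA (siHMGN5, 2 libraries) or STAT3 siRNA (siSTAT3, 2 libraries). The 9 libraries of the lentiviral experiment were 3 of control siRNA and control vector (NC_Vec), 3 of STAT3 siRNA and control vector (siSTAT3_Vec), and 3 of STAT3 siRNA and an HMGN5 vector (siSTAT3_HMGN5). All cells were grown in L15 medium with serum. STAT3 carries cytokine and growth factor signals to the nucleus, and HMGN5 binds nucleosomes and loosens chromatin. Libraries held 19114033 to 19509422 estimated reads in the siRNA experiment and 22500086 to 23047081 in the lentiviral one, so that 3 reads corresponded to 0.13 to 0.157 CPM (counts relative to the library total) before TMM scaling. All CPM given below are scaled by TMM within an experiment. The depletion of STAT3 and HMGN5 and the markers of the cell line were not checked here, because only the 10 transcripts above could be matched to genes. The NC libraries fell into pairs that differed by more than replicates of the other groups: the mean chi-square per transcript was 38.0 to 39.7 between NC replicates 1 or 2 and NC replicates 3 or 4, against 16.0 to 20.8 for every other pair of replicates. Whether replicates were separate cultures is not stated, and the p-values therefore reflect the spread between these samples alone, which may be technical.

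AP-1 is a dimer of basic leucine zipper proteins, in which a JUN protein (JUN, JUNB or JUND) pairs with a FOS protein (such as FOS, FOSL1 or FOSL2) or with ATF3. FOSB, another FOS protein, was not among the transcripts followed. FOS, JUNB, EGR1 and ATF3 are immediate-early or stress-induced genes whose transcripts rise soon after a stimulus and decay fast, while JUND and FOSL2 are more steadily expressed. FOSL1 (FRA1) is known as a major FOS protein of mesenchymal breast cancer lines. EGR1 is a zinc finger factor induced through serum response elements, and MYC is a helix-loop-helix factor that drives growth and biosynthesis genes.

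Start sites were taken from the RefSeq promoter table (GRCh38.p14) for 7 of the 9 genes, and the 250 bases before each start were searched on both strands. FOSL1 had no entry there, and MYC was not looked up. The motifs were the AP-1 site TGACTCA, the cAMP response element TGACGTCA, the STAT site TTCCNGGAA, 1 form of the serum response element (exactly the letters capitalised in the EGR1 window), and TGACATCA, a JUN and ATF type of site chosen after the sequences were seen. They are shown for the 4 genes that held a match, with the match in capitals. Of these, JUND, ATF3 and EGR1 were called higher in siSTAT3_Vec and JUN was not. JUNB and FOS were also called higher there and held no match, and a relation between matches and levels was not tested. JUN lies at chr1:58780791-58784047 (minus strand), JUND at chr19:18279694-18281622 (minus strand), EGR1 at chr5:138465479-138469303 (plus strand) and ATF3 at chr1:212565407-212620777 (plus strand). The windows are chr1:58784048-58784297, chr19:18281623-18281872, chr5:138465229-138465478 and chr1:212565157-212565406 in the same order, each read 5′ to 3′ on the strand of its gene.
JUN: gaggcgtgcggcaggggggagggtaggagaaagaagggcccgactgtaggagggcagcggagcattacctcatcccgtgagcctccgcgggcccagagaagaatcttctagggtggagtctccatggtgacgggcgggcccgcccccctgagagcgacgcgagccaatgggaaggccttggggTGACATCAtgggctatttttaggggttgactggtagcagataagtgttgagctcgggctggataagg
JUND: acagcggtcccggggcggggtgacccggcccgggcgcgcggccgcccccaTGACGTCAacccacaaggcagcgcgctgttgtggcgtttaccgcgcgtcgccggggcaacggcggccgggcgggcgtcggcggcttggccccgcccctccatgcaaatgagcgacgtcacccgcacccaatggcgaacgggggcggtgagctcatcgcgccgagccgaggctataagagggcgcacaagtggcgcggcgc
EGR1: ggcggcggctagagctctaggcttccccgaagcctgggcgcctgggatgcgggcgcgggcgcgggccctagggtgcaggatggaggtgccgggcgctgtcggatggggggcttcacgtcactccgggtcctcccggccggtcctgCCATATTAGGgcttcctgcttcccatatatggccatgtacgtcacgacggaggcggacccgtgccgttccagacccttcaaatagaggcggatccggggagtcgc
ATF3: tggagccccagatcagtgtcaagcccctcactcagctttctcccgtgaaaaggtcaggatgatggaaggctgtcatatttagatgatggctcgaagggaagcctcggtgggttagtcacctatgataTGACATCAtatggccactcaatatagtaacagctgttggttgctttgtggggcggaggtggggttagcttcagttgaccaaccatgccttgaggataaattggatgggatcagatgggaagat
TGACATCA stood 67 to 60 bases before the start of JUN and 123 to 116 bases before that of ATF3, and 2.37% of the 35116 promoters in the table held it. TGACGTCA stood 200 to 193 bases before the start of JUND (1.65% of promoters), and the searched form of the serum response element 105 to 96 bases before that of EGR1 (0.0313%). Other forms of that element or of the other motifs were not searched and stand in lower case where present. Bases further from the start were not searched either. The ATF3 window is that of the first of 2 starts in the table, and which start the measured transcript uses was not established. TGACTCA (4.2% of promoters) and TTCCNGGAA (0.968%) were not found in these windows, nor was any of the 5 motifs in those of JUNB, FOS and FOSL2. A match is a description of the letters only.

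The first question was how these factors stood after STAT3 depletion without a vector. JUND and FOSL1 were higher in siSTAT3 than in NC and FOS was lower, while FOSL2 and JUNB lay within the range of the controls or close to it. Of the 10 transcripts tested, 2 were called higher and 1 was called lower at an adjusted p under 0.05 (quasi-likelihood test in edgeR, Benjamini-Hochberg over all transcripts), and the other 7 did not pass. Over all 74346 transcripts tested, 4.28% were called, 1.36% higher and 2.92% lower. The median log2 fold change was 0.29 over the 10 and 0.00 over all transcripts tested. Transcripts shorter than 300 bases held 1.57% and 1.59% of the reads in siSTAT3 and 1.56% and 1.7% in siHMGN5, against 1.15% to 1.26% in NC, and the part of this in the results below was not tested.

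JUND, the JUN subunit usually linked to resting cells, stood at 50.4, 52.2, 41.7 and 49.8 CPM in NC replicates 1 to 4 and at 132 and 139 CPM in siSTAT3. Both siSTAT3 libraries lay above every NC library. The rise was 2.79-fold, or 1.48 ± 0.11 on the log2 scale (SE; adjusted p = 0.00224), and it passed the test in each of 14 alternatives (log2 fold change 1.4 to 1.57, adjusted p of at most 0.0274). JUN, the founding subunit, stood at 117, 112, 52.4 and 55.3 CPM in NC and at 177 and 181 CPM in siSTAT3. Every siSTAT3 value was above every control, but the controls were themselves 2.13-fold apart between their pairs, and the difference did not pass the test with all 4 (log2 fold change 1.09 ± 0.35, adjusted p = 0.175; DESeq2 adjusted p = 0.0211). With NC replicates 1 and 2 as the only controls JUN was higher by 0.65 on the log2 scale (adjusted p = 0.00401) and with NC replicates 3 and 4 by 1.73 (adjusted p = 0.000287). In fits with 1 pair as the only controls, here and below, the other pair stayed in as a group of its own. It still entered the scaling and the estimate of spread, and the difference between the pairs did not count as spread. JUNB, a growth-restraining subunit, stood at 32, 33.4, 50.9 and 53.5 CPM in NC and at 40.5 and 37.1 CPM in siSTAT3, between the pairs of controls (log2 fold change -0.13 ± 0.25, adjusted p = 0.887).

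Among the FOS subunits, FOS itself was near the limit of counting. It had 17.8, 18.6, 30.5 and 31.8 estimated reads in NC (0.903 to 1.67 CPM) and 2.1 and 2.9 in siSTAT3 (0.11 and 0.156 CPM). On the 5 reads of siSTAT3 against 99 of NC it was 9.67-fold lower, with a 95% exact interval of 4.01 to 30.4 that covers counting error only, and the fit gave a log2 fold change of -3.23 ± 0.59 (adjusted p = 0.0344). FOSL1 was 1.52-fold higher, at 75.0, 75.0, 86.5 and 78.4 CPM in NC against 124 and 115 CPM in siSTAT3 (log2 fold change 0.60 ± 0.11, adjusted p = 0.0375). Neither group overlapped with its controls. Both calls ended without any 1 NC or siSTAT3 library, with the direction kept and a lone siSTAT3 library taken to vary as the remaining groups do (adjusted p 0.0506 to 0.226 for FOS and 0.0517 to 0.255 for FOSL1). FOSL2, a late and more stable FOS subunit, stood at 181, 155, 154 and 165 CPM in NC and at 152 and 171 CPM in siSTAT3 (log2 fold change -0.02 ± 0.10, adjusted p = 0.97).

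ATF3 and EGR1 showed how much the choice of controls mattered. ATF3, a stress-induced partner of JUN proteins, had 2.33 and 4.33 CPM in the first pair of NC libraries (replicates 1 and 2), 9.49 and 10.3 CPM in the second (replicates 3 and 4), and 11.3 and 10.7 CPM in siSTAT3. The siSTAT3 libraries were close to the second pair of controls and well above the first. The log2 fold change was 0.73 ± 0.56 with all controls (adjusted p = 0.592), against the first pair 1.72 (adjusted p = 0.0356) and against the second 0.15 (adjusted p = 0.869). EGR1 stood at 68.7, 71.9, 42.8 and 47.7 CPM in NC and at 40.4 and 39.0 CPM in siSTAT3, below all 4 controls but by little for the second pair. Its log2 fold change was -0.54 ± 0.23 (adjusted p = 0.30) with all controls, -0.83 (adjusted p = 0.00423) against the first pair and -0.19 (adjusted p = 0.196) against the second. Against NC replicates 1 and 2, 6 of the 10 transcripts were called, 4 higher and 2 lower, beside 7.13% of all transcripts. Against NC replicates 3 and 4, 3 were called, 2 higher and 1 lower, beside 9.85%.

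The estimated reads of the 2 MYC transcripts moved between them from library to library. NC replicates 1 and 4 had all of them on ENST00000377970 (12.6 and 15.7 CPM) and NC replicates 2 and 3 all of them on ENST00000621592 (15 and 12.4 CPM), which was at 0 in the other 15 libraries. The transcripts are 2351 and 2366 bases long, and a read that fits both is assigned by a model, so MYC is described by their sum. Reads on any other MYC transcript are not in this sum. The medians over the 10 hold the 2 transcripts as fitted singly. The sum was 12.6, 15, 12.4 and 15.7 CPM in NC and 23 and 22.5 CPM in siSTAT3. All siSTAT3 values were above the controls, and the difference did not pass the test (log2 fold change 0.71 ± 0.44, adjusted p = 0.487, in a fit with the 2 transcripts joined).

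**Figure D1:**
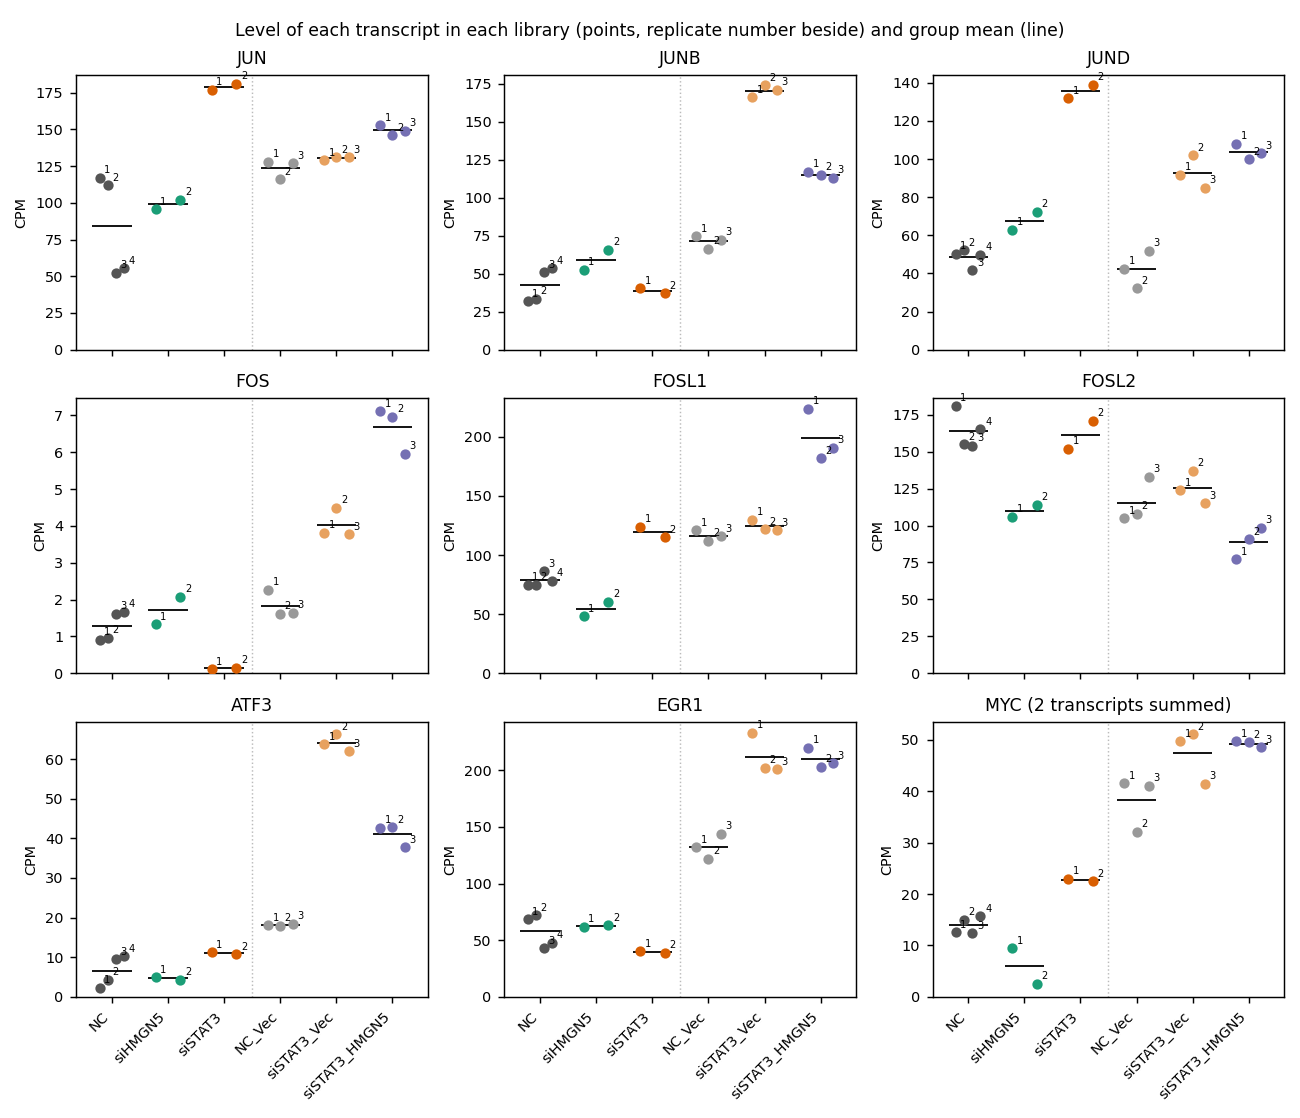
Level of each member in CPM (y axis, linear from 0, scaled by TMM within each experiment) in the 6 groups (x axis); points are libraries with the replicate number beside them, lines are group means, and the dotted line parts the experiments. JUN, JUNB, ATF3 and EGR1 show NC replicates 1 and 2 apart from NC replicates 3 and 4 (JUN 117 and 112 CPM against 52.4 and 55.3 CPM).

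HMGN5 depletion was compared with the same NC libraries. FOSL2 was lower in siHMGN5 and was the 1 of 10 transcripts that passed the test, beside 3.39% of all 74346 (0.943% higher and 2.45% lower). The 2 siHMGN5 libraries were below NC in FOSL2, FOSL1 and the MYC sum and above it in JUND, and overlapped with the range of NC in JUN, FOS, ATF3 and EGR1. Here and elsewhere, the share of all transcripts whose groups did not overlap was not counted, so such positions are descriptions only. The median log2 fold change was -0.06 over the 10 and 0.00 over all transcripts tested. Because this comparison and the previous one share their controls, their values are set side by side only.

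FOSL2 stood at 106 and 114 CPM in siHMGN5 against 154 to 181 CPM in NC, a 1.49-fold fall with no overlap (log2 fold change -0.57 ± 0.10, adjusted p = 0.0335). The call ended without any 1 library of either group (adjusted p 0.0508 to 0.238, same direction). FOSL1 stood at 48.3 and 60.6 CPM in siHMGN5 against 75.0 to 86.5 CPM in NC, below every control (log2 fold change -0.53 ± 0.12, adjusted p = 0.0724). JUND stood at 62.8 and 72.3 CPM against 41.7 to 52.2 CPM, above every control (log2 fold change 0.48 ± 0.11, adjusted p = 0.0841). Neither FOSL1 nor JUND passed with all 4 controls, and against NC replicates 3 and 4 alone both did (adjusted p = 0.0363 and 0.034), as they did in DESeq2 with all 4 (0.000293 and 0.000445).

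JUNB stood at 52.7 and 65.7 CPM in siHMGN5, above NC replicates 1 and 2, and replicate 1 lay within the range of NC replicates 3 and 4, with a log2 fold change of 0.48 ± 0.25 (adjusted p = 0.408). JUN at 95.8 and 102 CPM and EGR1 at 61.9 and 63.2 CPM lay between the pairs of controls (adjusted p = 0.854 and 0.895). The direction of JUN, ATF3 and EGR1 changed with the pair used: against NC replicates 1 and 2 the values were -0.21, 0.49 and -0.17 on the log2 scale, and against NC replicates 3 and 4 they were 0.87, -1.08 and 0.47. Of these, JUN and EGR1 passed against NC replicates 3 and 4 (adjusted p = 0.00132 and 0.0162), and JUNB passed against NC replicates 1 and 2 (log2 fold change 0.86, adjusted p = 0.019). ATF3 stood at 5.00 and 4.37 CPM and FOS at 1.33 and 2.08 CPM. Against NC replicates 1 and 2, 2 of the 10 transcripts were called (5.6% of all transcripts), and against NC replicates 3 and 4, 5 were (10.3%). The MYC sum was 9.49 CPM in siHMGN5 replicate 1 and 2.57 CPM in replicate 2, a wider spread than among the 4 controls, with a log2 fold change of -1.20 ± 0.48 (adjusted p = 0.28). Both values were below every NC library (12.4 to 15.7 CPM).

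The knockdowns were then compared with each other, which leaves the NC libraries out of the contrast but not out of the estimate of spread. JUND, FOSL1 and FOSL2 were higher in siSTAT3 than in siHMGN5 and FOS was lower, 4 of the 10 transcripts, beside 3.89% of all 74346 (2.02% higher and 1.87% lower). FOSL1 differed 2.19-fold (log2 fold change 1.13 ± 0.14, adjusted p = 0.00981) and JUND 2.0-fold (1.0 ± 0.13, adjusted p = 0.0136). FOS had 5 reads in siSTAT3 and 67 in siHMGN5, a 12.7-fold difference with a 95% exact counting interval of 5.19 to 40.5 (fitted log2 fold change -3.59 ± 0.64, adjusted p = 0.0316). FOSL2 differed 1.47-fold and was close to the threshold (log2 fold change 0.56 ± 0.11, adjusted p = 0.0493). Leaving out any of the 4 libraries left at most 1 of these calls, FOSL1 without siHMGN5 replicate 2 (adjusted p = 0.0284). The directions stayed. JUNB and EGR1 were lower in both siSTAT3 libraries than in both siHMGN5 libraries and did not pass (adjusted p = 0.361 and 0.273). JUN (1.81-fold), ATF3 (2.35-fold) and the MYC sum (3.77-fold) were higher in both siSTAT3 libraries and did not pass either (adjusted p = 0.38, 0.432 and 0.131). With only these 2 groups in the fit, EGR1 (lower) and JUN (higher) passed (adjusted p = 0.0309 and 0.0235), and FOS and FOSL2 did not (0.0687 and 0.0638).

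**Figure D2:**
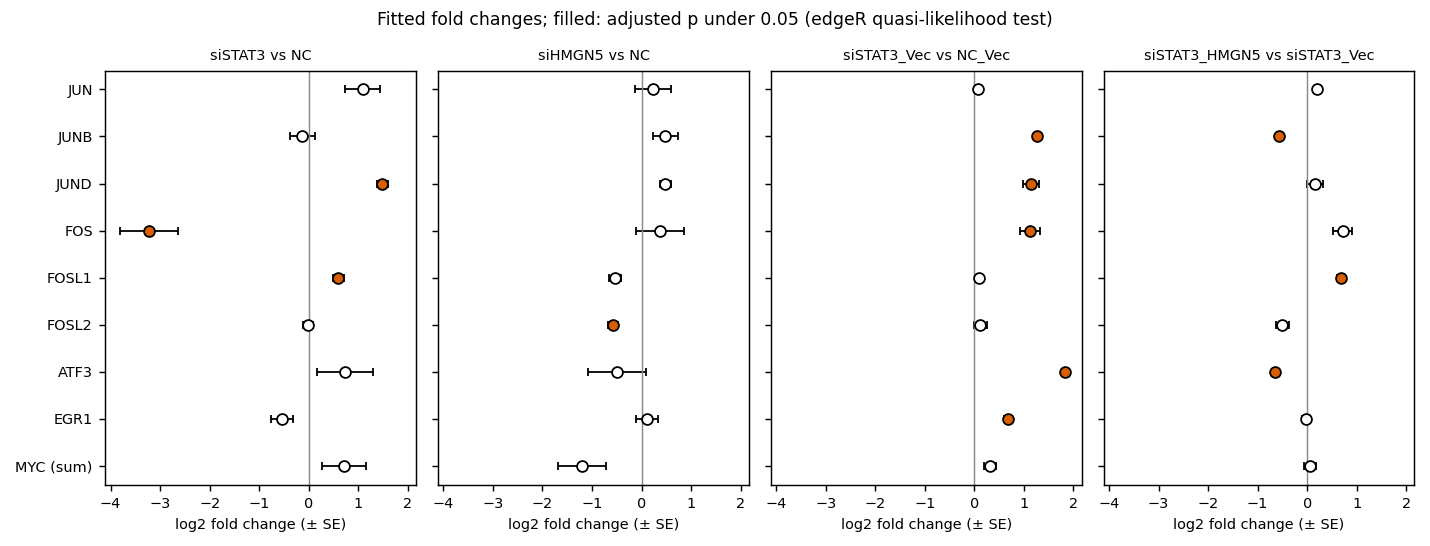
Fitted log2 fold changes (x axis, the same in all panels) with their standard errors as bars for each member (y axis) in 4 comparisons; filled points have an adjusted p under 0.05. JUND is filled for STAT3 siRNA in both experiments (1.48 and 1.14), FOS lies on opposite sides (-3.23 and 1.12), and JUNB and ATF3 are positive with STAT3 siRNA in vector cells (1.26 and 1.82) and negative with ectopic HMGN5 (-0.57 and -0.64).

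In cells carrying the control vector, STAT3 siRNA was followed by higher levels of 5 of these genes. JUNB, JUND, FOS, ATF3 and EGR1 rose, no log2 fold change of the 9 transcripts tested was below 0, and JUN, FOSL1, FOSL2 and MYC did not pass the test. Of all 69768 transcripts, 7.20% were called higher, 7.07% lower and 14.3% in either direction. The median log2 fold change was 0.67 over the 9 and 0.02 over all transcripts tested. Transcripts shorter than 300 bases held 1.23%, 1.25% and 1.28% of the reads in siSTAT3_Vec against 1.21%, 1.16% and 1.17% in NC_Vec, and the part of this in the results was not tested. All 5 calls held in the 12 alternatives, where the highest adjusted p was 0.0347.

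ATF3 moved most. It stood at 18.1, 18.0 and 18.4 CPM in NC_Vec and at 63.7, 66.2 and 61.9 CPM in siSTAT3_Vec, 3.52-fold higher (log2 fold change 1.82 ± 0.06, adjusted p = 7.84e-06). Replicates differed by a few percent and the groups lay far apart. JUNB rose 2.39-fold, from 74.7, 66.4 and 72.5 CPM to 166, 174 and 171 CPM (log2 fold change 1.26 ± 0.05, adjusted p = 1.24e-05). FOS rose 2.18-fold at a low level, from 2.27, 1.61 and 1.64 CPM to 3.82, 4.50 and 3.78 CPM, which is 36.7 to 49.5 estimated reads against 86.0 to 101.9 (log2 fold change 1.12 ± 0.20, adjusted p = 0.00785). The groups did not overlap for either gene. EGR1 rose 1.60-fold, from 132, 122 and 144 CPM to 233, 202 and 201 CPM (log2 fold change 0.67 ± 0.08, adjusted p = 0.00136).

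JUND rose 2.20-fold, from 42.4, 32.2 and 51.9 CPM to 91.7, 102 and 84.9 CPM (log2 fold change 1.14 ± 0.16, adjusted p = 0.00292). The NC_Vec libraries were spread more widely for JUND than for JUN or JUNB. Its effective length, the number of start positions the authors' software allowed a fragment after its bias model, also varied: it was 1135, 1090 and 1600 bases in NC_Vec and 1599, 1617 and 1459 bases in siSTAT3_Vec for a transcript of 1863 bases, while that of JUN varied 1.03-fold over all 17 libraries. NC_Vec replicates 1 and 2 had both the lowest CPM and the shortest effective length. With the effective length as an offset, the JUND log2 fold change was 0.85 and remained past the threshold (adjusted p = 0.000679). In TPM, which divides by that length, JUND stood at 17.8, 15.8 and 16.9 in NC_Vec and at 29.1, 31.6 and 28.7 in siSTAT3_Vec, with no overlap.

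JUN stood at 128, 116 and 127 CPM in NC_Vec and at 129, 131 and 131 CPM in siSTAT3_Vec (log2 fold change 0.07 ± 0.05, adjusted p = 0.377). FOSL1 stood at 112 to 121 CPM and 121 to 130 CPM (log2 fold change 0.10 ± 0.08, adjusted p = 0.534), and FOSL2 at 105 to 133 CPM and 115 to 137 CPM (0.12 ± 0.13, adjusted p = 0.645). The MYC sum was 41.6, 32.1 and 41.1 CPM in NC_Vec and 49.7, 51.1 and 41.5 CPM in siSTAT3_Vec, and the groups overlapped (log2 fold change 0.31 ± 0.12, adjusted p = 0.133).

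**Figure D3:**
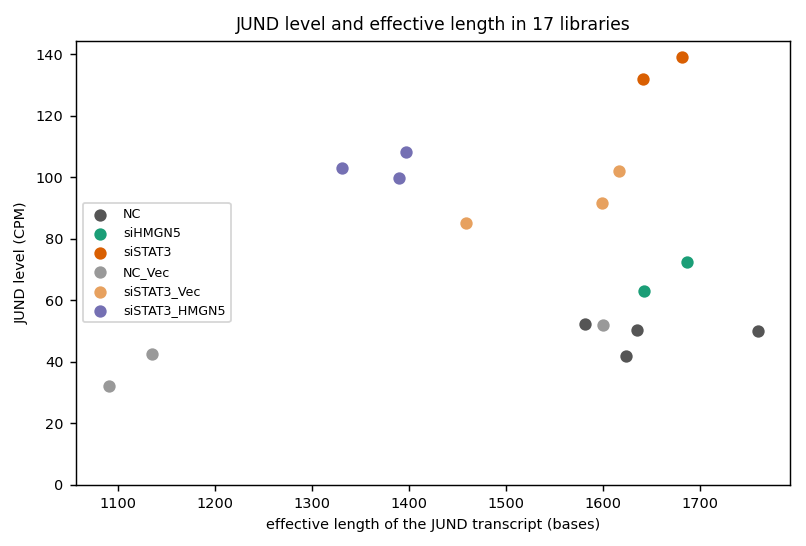
JUND level (y axis, CPM, from 0) against the effective length of its transcript (x axis, bases) in the 17 libraries, coloured by group. NC_Vec replicates 1 and 2 lie at 1135 and 1090 bases and 42.4 and 32.2 CPM, and within the siRNA experiment the siSTAT3 libraries are the highest, at 132 and 139 CPM; CPM are scaled within each experiment.

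Ectopic HMGN5 in STAT3-depleted cells was followed by a fall of JUNB and ATF3 and a rise of FOSL1. These 3 of the 9 transcripts passed the test, 1 higher and 2 lower, beside 3.77% of all 69768 (1.52% higher and 2.25% lower). The median log2 fold change was 0.05 over the 9 and -0.01 over all transcripts tested. The 3 calls held in each of 12 alternatives (adjusted p of at most 0.0319).

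JUNB fell 1.48-fold from siSTAT3_Vec to 117, 115 and 113 CPM in siSTAT3_HMGN5 (log2 fold change -0.57 ± 0.05, adjusted p = 0.00194). ATF3 fell 1.56-fold to 42.6, 42.8 and 37.8 CPM (log2 fold change -0.64 ± 0.06, adjusted p = 0.00259). This comparison shares the siSTAT3_Vec libraries with the previous one, and opposite signs between them are therefore not independent. Both genes stayed above NC_Vec in every library: JUNB was 1.61-fold higher than in NC_Vec (adjusted p = 7.3e-05) and ATF3 2.26-fold higher (adjusted p = 1.76e-05). They thus stood between the other groups of the experiment, without overlap on either side. FOSL1 rose 1.60-fold to 224, 182 and 191 CPM (log2 fold change 0.68 ± 0.08, adjusted p = 0.00528), all above the highest siSTAT3_Vec library at 130 CPM. FOSL1 had not passed the test for STAT3 siRNA alone in these cells.

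The other members did not pass this test. EGR1 was at 220, 203 and 206 CPM, within the range of siSTAT3_Vec (log2 fold change -0.02 ± 0.08, adjusted p = 0.98), and JUND at 108, 99.8 and 103 CPM (0.15 ± 0.16, adjusted p = 0.797; 0.34 and adjusted p = 0.0912 with the effective length offset). The effective length of JUND was 1397, 1390 and 1331 bases in siSTAT3_HMGN5, against 1599, 1617 and 1459 bases in siSTAT3_Vec. In TPM, JUND stood at 37.3, 36 and 40.4 against 29.1, 31.6 and 28.7, with no overlap. JUN at 153, 146 and 149 CPM and FOS at 7.12, 6.97 and 5.96 CPM lay above every siSTAT3_Vec library, and FOSL2 at 77.1, 90.8 and 98.6 CPM lay below every one (adjusted p = 0.0641, 0.102 and 0.0855; in DESeq2 all 3 passed, at 0.000157, 0.000653 and 0.00222). JUN is the member closest to the threshold here: with only the 2 groups compared in the fit its adjusted p was 0.0443 and with the effective length offset 0.048. The MYC sum at 49.7, 49.5 and 48.6 CPM lay within the range of siSTAT3_Vec (log2 fold change 0.05 ± 0.12, adjusted p = 0.942).

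Against NC_Vec, 7 of the 9 transcripts were higher in siSTAT3_HMGN5, beside 10.9% of all 69768 called higher, 11.4% called lower and 22.3% in either direction. The largest rise was that of FOS, 3.60-fold (log2 fold change 1.85 ± 0.20, adjusted p = 0.000496), followed by JUND, 2.45-fold (1.30 ± 0.16, adjusted p = 0.000997). With the effective length offset in edgeR, the JUND log2 fold change was 1.19 (adjusted p = 8.35e-05). FOSL1 was 1.71-fold, EGR1 1.58-fold and JUN 1.20-fold higher (adjusted p = 0.000394, 0.000947 and 0.00434). FOSL2, lower in all 3 libraries than in any NC_Vec library, did not pass (log2 fold change -0.38 ± 0.13, unadjusted p = 0.0186, adjusted p = 0.0724; DESeq2 adjusted p = 0.0104). The MYC sum, higher in all 3, did not pass either (0.37 ± 0.12, adjusted p = 0.0617; DESeq2 adjusted p = 0.0139 for ENST00000377970, which holds all of its reads here).

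Whether the STAT3 siRNA effect itself differed between the experiments was tested as an interaction over all 17 libraries. It differed for JUNB, FOS and EGR1, each more negative in the siRNA experiment, 3 of 10 transcripts beside 5.51% of all 86839 (2.23% higher and 3.28% lower). For FOS the difference of log2 fold changes was -4.38 ± 0.50 (adjusted p = 0.000187): it was lower in siSTAT3 than in NC and higher in siSTAT3_Vec than in NC_Vec. For JUNB the difference was -1.41 ± 0.26 (adjusted p = 0.00561) and for EGR1 -1.24 ± 0.24 (adjusted p = 0.00737), where the effect in the siRNA experiment alone had not passed its test. Of all transcripts, 6.54% and 10.8% were called with the first and the second pair of NC libraries as the only controls. These 3 differences were called with either pair of NC libraries as the only controls (FOS -3.92 and -4.73, JUNB -1.03 and -1.72, EGR1 -1.51 and -0.89, in the order of the pairs).

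JUND was called higher with STAT3 siRNA in both experiments, which share no library, and its effects were not shown to differ (difference 0.32 ± 0.21, adjusted p = 0.485). With the effective length offset the difference was 0.59 (adjusted p = 0.0337). JUN differed by 1.0 ± 0.36 and FOSL1 by 0.48 ± 0.14, and neither passed in edgeR with all NC libraries (adjusted p = 0.148 and 0.0746), while both did in DESeq2 (0.0405 and 0.00761). JUN passed with each pair of controls alone, at 0.56 and 1.63 (adjusted p = 0.000326 and 4.86e-08), and FOSL1 with the first pair but not the second (adjusted p = 0.0411 and 0.11). ATF3 differed by -1.11 ± 0.57 (adjusted p = 0.344), and by -0.11 or -1.69 with the first or the second pair (adjusted p = 1 and 0.000851); without NC replicate 1 alone it was -1.39 and passed (adjusted p = 0.0356). Vector and experiment cannot be told apart, since every vector library is from the lentiviral experiment.

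**Figure D4:**
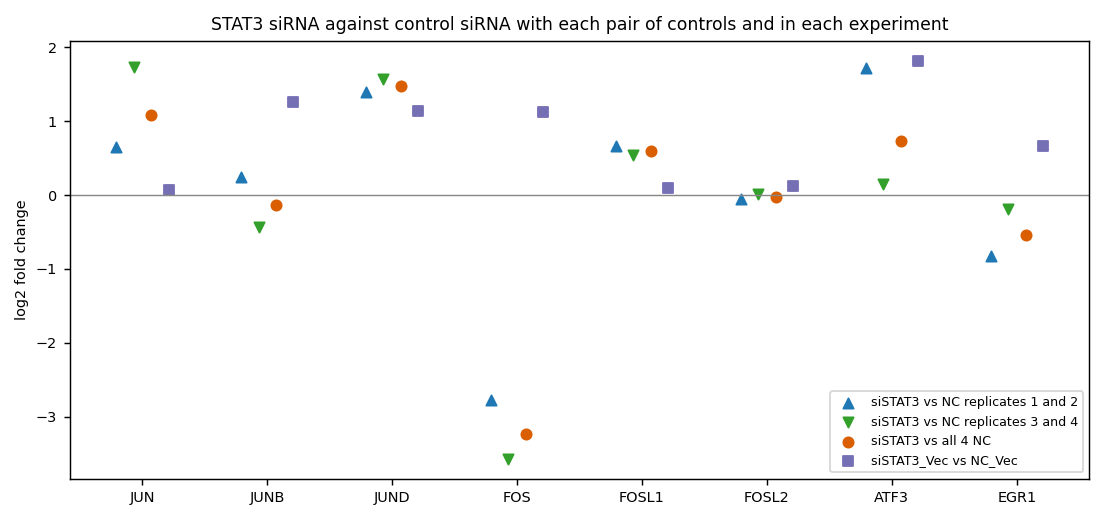
Log2 fold change with STAT3 siRNA (y axis) for 8 members (x axis) against NC replicates 1 and 2, NC replicates 3 and 4, all 4 NC libraries, and in the vector cells. JUND stays between 1.14 and 1.57 in all 4, FOS is below 0 with each set of NC libraries and above 0 in vector cells, and ATF3 ranges from 0.15 to 1.82.

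Levels of different genes were set side by side as TPM, which is per length, and as shares of the summed TPM of the 3 JUN or the 3 FOS transcripts, which cancels the scale of a library. FOSL1 was the largest of the 3 FOS transcripts in every group, from 67.8% ± 2.55 of their summed TPM in NC (SD, n = 4) to 88.8% ± 1.79 in siSTAT3_HMGN5 (SD, n = 3). FOSB is not in this sum. FOS itself was a small part everywhere, at 0.837% ± 0.248 in NC and 2.26% ± 0.257 in siSTAT3_HMGN5. FOSL2 made up 17.9% ± 2.06 in NC_Vec, 18.0% ± 1.37 in siSTAT3_Vec and 8.95% ± 1.72 in siSTAT3_HMGN5, where its range of 6.97% to 10.1% did not reach that of siSTAT3_Vec. These shares are descriptions with no test.

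The JUN family was more evenly divided. In NC_Vec, JUNB held 39.7% ± 0.79, JUN 32.3% ± 0.906 and JUND 28.0% ± 1.38 (SD, n = 3). In siSTAT3_Vec JUNB held more than JUN and JUND together (52.0% ± 0.707), and JUN 19.2% ± 0.329. With ectopic HMGN5, JUNB was at 37.8% ± 0.876 and JUND at 38.8% ± 0.945, and their ranges overlapped. In siSTAT3 without a vector the order was different, with JUND at 51.0% ± 0.818 and JUNB at 15.1% ± 1.17 (SD, n = 2). In NC the shares of JUN (21.4% to 41.0%) and JUNB (23.3% to 43.6%) followed the pairs of libraries, while that of JUND stayed between 34.8% and 37.3%.

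**Figure D5:**
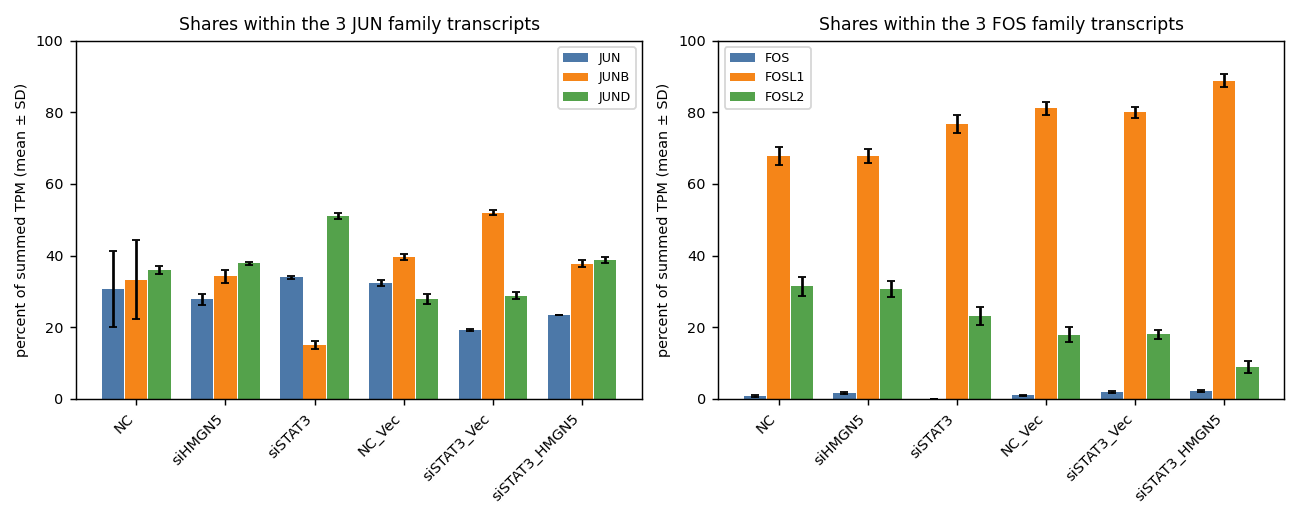
Percent of the summed TPM of the 3 JUN transcripts (left) and of the 3 FOS transcripts (right) in each group (x axis); bars are means over libraries and error bars are SD. JUNB is the largest JUN transcript in siSTAT3_Vec (52.0%) and JUND in siSTAT3 (51.0%), and FOSL1 is the largest of the 3 FOS transcripts in all 6 groups.

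Each gene other than MYC was represented by 1 transcript, so reads on other transcripts of the gene are not counted here. The estimated reads of JUN and EGR1 were whole numbers (within 0.0015) in all 17 libraries and those of JUND in 10. Those of JUNB were whole in 1, and those of FOS, FOSL1, FOSL2 and ATF3 in none, as happens where reads are divided between transcripts by a model. MYC ENST00000377970 was whole only in the 2 libraries where it was at 0. It was fractional where ENST00000621592 was at 0, so its reads may also be divided with transcripts not counted here. In bulk RNA, fewer cells expressing a gene and less RNA per cell cannot be told apart.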

How the data were processed

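RNA of 17 libraries was analysed; the H3K27ac CUT&Tag samples of the series were not analysed here. The authors deposited, per the file headers, the length and effective length of each Ensembl transcript, its TPM and its estimated count from Salmon 1.4.0. CASAVA, Bowtie2, HOMER and the build hg38 are also named in the submitters' processing notes; the transcript release and the options are not given in the sources used here.

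Estimated counts were rounded and tested in edgeR 4.0.16 (R 4.3.3; filterByExpr, TMM, glmQLFit and glmQLFTest), with the 2 experiments fitted apart and the difference of STAT3 siRNA effects fitted over all 17 libraries. Adjusted p is Benjamini-Hochberg over all transcripts tested, with a threshold of 0.05; a p that misses it does not show that levels did not differ. The SE was obtained from the F statistic, as the size of the log2 change over the root of F. CPM are scaled by TMM within an experiment, so they are not compared across experiments, and intervals cover counting error only. MYC was also tested as the sum of the 2 transcripts, in a separate fit. The fits were tested on simulated data, where most of the changes put in were missed in the siRNA experiment.

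Alternatives were RLE scaling, no filter, a replicate block, only the groups compared, DESeq2 1.42.0, each pair of NC libraries alone, each library left out and, added after the files were seen, an effective length offset. For a pair of NC libraries alone, the other pair was kept in the fit as a separate group, so p-values leave out the difference between the pairs. The motif TGACATCA was added after the promoter sequences were seen. Every member is named, by rule, and members and lists were chosen with earlier results of these data known. The planned pathway list, cell line markers, protein sequences and STAT3 and HMGN5 levels could not be matched to transcripts and are not reported.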

Additional observations from a re-analysis of the deposited data

Results flagged for a closer look

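The effect of STAT3 siRNA differed between the experiments for 3 genes by a test of the difference itself (edgeR interaction, Benjamini-Hochberg adjusted over 86839 transcripts). The difference of log2 fold changes, siRNA experiment minus lentiviral experiment, was -4.38 for FOS, -1.41 for JUNB and -1.24 for EGR1. All 3 passed the test in each of 19 alternatives. In the siRNA experiment FOS rests on 5 estimated reads over the siSTAT3 libraries, and the NC libraries of JUNB and EGR1 fell into pairs 1.6-fold and 1.55-fold apart. The vector and the experiment cannot be told apart.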

How the results depend on the processing

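JUND with STAT3 siRNA against control siRNA in both experiments, the other 4 calls in siSTAT3_Vec, the 3 calls with ectopic HMGN5, the 7 calls of siSTAT3_HMGN5 against NC_Vec and the 3 differences between experiments passed the test in every alternative run. The other calls in the siRNA experiment, that of JUND between the knockdowns included (adjusted p 0.0608 to 0.0982 with 1 library left out), depended on the libraries or settings used. Where an arm is left with 1 library, its spread is taken from the remaining groups. The siRNA experiment is limited by groups of 2 libraries, by NC libraries that stand apart in pairs, and for FOS by a few reads. The cause of the changes below was not tested.

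For siSTAT3 against NC, 3181 transcripts and 3 members were called. The transcripts numbered 10650 in DESeq2, 5298 with NC replicates 1 and 2 and 7321 with NC replicates 3 and 4 as the only controls, and 775 to 2349 with 1 library left out. The members numbered 1 without the filter, 6 with NC replicates 1 and 2, and 1 with any 1 library left out. For siHMGN5 against NC, 2521 transcripts and 1 member were called. The transcripts numbered 1638 without the filter, 1448 with only the 2 groups, 9904 in DESeq2, 4163 and 7656 with the pairs of controls, and 551 to 1838 with 1 library left out. The members numbered 0 without the filter, 0 with only the 2 groups, 3 in DESeq2, 2 and 5 with the pairs of controls, and 0 with any 1 library left out. For siSTAT3 against siHMGN5, 2893 transcripts and 4 members became 10178 transcripts in DESeq2, 844 to 972 transcripts and 0 to 1 members with 1 library left out, and 2 members without the filter.

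For siSTAT3_Vec against NC_Vec, 9953 transcripts became 16965 in DESeq2. For siSTAT3_HMGN5 against siSTAT3_Vec, 2631 transcripts became 1627 without the filter, 8078 in DESeq2 and 1190 to 1668 with 1 library left out, and 3 members became 6 in DESeq2. For the difference between experiments, 4784 transcripts became 11074 in DESeq2, 9364 with NC replicates 3 and 4 and 3061 to 5393 with 1 library left out, and 3 members became 5 in DESeq2 and with either pair of controls.

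Replicate numbers did not pair the libraries: same-numbered libraries had correlations of deviations from -0.0887 to 0.052. With the replicate number as a block, JUN differed between experiments by 0.56 (adjusted p = 0.00372), and 1622 transcripts were called for siSTAT3 against NC, 902 for siHMGN5 against NC (0 members) and 1156 for siSTAT3_HMGN5 against siSTAT3_Vec. In the siRNA experiment only NC had replicates 3 and 4, so with the block the contrasts with NC rest on NC replicates 1 and 2. The block is thus not separate there from the use of that pair as the only controls. It gave reversed signs for JUNB in siSTAT3 (0.25), for JUN (-0.21), ATF3 (0.52), EGR1 (-0.17) and MYC ENST00000377970 (0.78) in siHMGN5, and for MYC ENST00000621592 between the knockdowns (-0.02).

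No result that changed sign, with the block or in another alternative, had passed the test in the edgeR fit that the alternatives are set against. With NC replicates 1 and 2, JUNB in siSTAT3 was 0.25, and JUN, ATF3 and EGR1 in siHMGN5 were -0.21, 0.49 and -0.17. With NC replicates 3 and 4, FOSL2 in siSTAT3 was 0.02. With 1 library left out, JUNB in siSTAT3 ran from -0.24 to 0.00 and FOSL2 from -0.11 to 0.06. In siHMGN5, FOS ran from -0.01 to 0.65, EGR1 from -0.01 to 0.24 and MYC ENST00000377970 from -1.46 to 0.52. With ectopic HMGN5, EGR1 ran from -0.06 to 0.05 and MYC ENST00000377970 from -0.03 to 0.11.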
